A study of Mus musculus with 16 samples.

Results

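Genistein (G) was added to kaempferol (K) in primary skin fibroblasts from the tails of mice with mucopolysaccharidosis type I (MPS I), a lysosomal storage disorder in which the enzyme encoded by Idua is deficient and glycosaminoglycans (GAGs) accumulate. The comparison uses 4 of the 16 arrays of the series: the 2 arrays of the 120 µM 1:1 mixture, which holds 60 µM G and 60 µM K, and the 2 arrays of 60 µM K, with all 22206 annotated transcript clusters of the Clariom S mouse array as the features tested. Every culture, controls included, came from MPS I mice of 6 to 8 weeks and was exposed for 24 h, so no wild-type cells enter any value. The sources used here do not give the allele, the strain or the number of mice behind each array. The further groups compared are 60 µM G, 120 µM K, 0.05% DMSO and 0.1% DMSO, 2 arrays each. The remaining groups are 120 µM G and the 60 µM 1:1 mixture, with 30 µM of each compound, 2 arrays each. They enter no comparison, but in the main fit all 16 arrays set the spread behind p. The labels call the 2 arrays of a group biological replicates, and nothing says that they came from separate animals, so p measures the spread between cultures of this kind, which may be technical. The study's methods name more biological replicates than were analysed here, and every p below rests on 2 arrays a group.

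The design carries a solvent difference along with the added G. Mixtures were compared with 0.1% DMSO and single flavonoids with 0.05% DMSO in the study's methods, whereas every treated sample is labelled with 0.05% DMSO. Both DMSO controls were therefore set beside each result: 0.1% against 0.05% DMSO as its own difference, and the difference between the mixture and K net of it. These controls share no array with the mixture and K arrays.

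G is the main isoflavone of soy and K a flavonol found in many vegetables, and they differ in the carbon of the central ring that carries the phenyl group and in 1 hydroxyl group, which K has in addition. G inhibits tyrosine kinases, binds oestrogen receptors and lowers GAG synthesis, which is why it has been studied in mucopolysaccharidoses. Fibroblasts make the collagens, proteoglycans and growth factors of the dermal matrix, and their secreted and surface proteins respond to growth factor and kinase signals.

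The cells carried fibroblast transcripts. Background was taken as the median signal of each array's negative controls, and a marker counted as above it if at least 1 array of the group was. All 12 fibroblast markers lay above background in 60 µM K and 11 in the mixture. The marker that differed was Lum, a small proteoglycan. It was near background in both groups, at 6.74 and 6.16 with K and 6.26 and 6.37 with the mixture. All 10 keratinocyte, 7 endothelial and 6 Schwann cell markers were not above it in both groups. Of 9 immune markers 2 were above it, and the list mean of the log2 signals lay at 5.18 to 5.26 on the K arrays and 5.24 to 5.29 on the mixture arrays. Some markers of other cell types were above background: Runx2 and Sox9 among 3 of 7 of cartilage and bone, 2 of 6 of pericytes, and 1 each of melanocytes (Mlana), adipocytes (Fabp4) and skeletal muscle (Ckm). Runx2, a transcription factor of bone, had 12.32 and 12.60 with K and 11.59 and 11.73 with the mixture (-0.80, adjusted p = 0.093), and Fabp4, a fatty acid carrier, had 8.24 and 8.75 with K and 7.57 and 6.94 with the mixture (-1.24, adjusted p = 0.094). No marker of the lists other than fibroblasts passed the test, and the part of other cell types in the results was not tested. Among the fibroblast markers Thy1, a surface glycoprotein, fell, from 14.98 and 15.03 to 13.88 and 14.11 (-1.01, adjusted p = 0.0090), and the list mean went from 14.18 to 14.27 on the K arrays to 13.92 on the mixture arrays. Idua had log2 signals of 7.90 and 7.73 with K and 7.66 and 7.79 with the mixture, a difference of -0.09 ± 0.14 (standard error), and the reference genes B2m and Gapdh differed by 0.07 and -0.09. None of these 3 passed the test (limma, adjusted p = 0.90 to 0.92).

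Adding 60 µM G to 60 µM K raised 31 transcript clusters and lowered 70 (limma, adjusted p under 0.05), which is 0.14% and 0.315% of those tested (0.455% together). Among the largest falls were proliferins, the chemokine Ccl9, the lectin galectin-3 (Lgals3), the glutathione S-transferase Gsta2 and the surface antigen Ly6c1. The largest rises were in the cAMP phosphodiesterase Pde7b, the chemokine Cxcl14 and Hexim1, an inhibitor of transcription elongation. The rises spanned 0.66 to 2.11 and the falls -2.72 to -0.67 on the log2 scale, and 18 of the rises and 44 of the falls were larger than 2-fold. At an unadjusted p under 0.05 there were 1049 higher (4.72%) and 1217 lower (5.48%). In simulated data of the same layout, with rises planted in brighter transcript clusters only, the test found 82.6% of 2-fold but 13.4% of 1.5-fold changes. In that setting moderate changes were mostly not detectable with 2 arrays a group. The median standard error was 0.187, and the median 95% interval reached 0.40 on either side.

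Each group has 2 arrays, and leaving out 1 of the 4 compared arrays left few calls: 9 without mixture replicate 1, 12 without mixture replicate 2, 11 without K replicate 1 and 17 without K replicate 2. All 101 differences kept their sign in these 4 fits, but 7 passed the test in every one of them and 80 in none. The 7 are Pde7b, which rose, and Ccl9, Lgals3, Gm3776, Ly6c1, Ifi204 and Lmo7, which fell. A group with 1 array left is assumed in these fits to vary like the other groups. The groups did not overlap in any of the 101, so leaving out 1 array could not change a sign, and the kept signs show no stability.

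The 2 DMSO controls differed from each other by about as much, over all genes, as the mixture and K did. The median size of a log2 difference was 0.154 between the DMSO controls and 0.153 between the mixture and K. The 95th percentile was 0.521 and 0.518. With the fold change criterion of the study, above 1.3 or below 0.7 and without a test, 2073 transcript clusters (9.34%) passed between the solvents and 1970 (8.87%) between the mixture and K. The limma test called 1 transcript cluster between the solvents, Gm2888 (0.0045% of those tested, 2050, or 9.23%, at an unadjusted p under 0.05), and that call was lost without any 1 of the 4 DMSO arrays. The difference between the solvents was thus wide but, apart from Gm2888, not past the test.

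For the 101 called transcript clusters, the solvent difference was mostly small beside the change with G. Among the 31 that rose, it lay between -0.48 and 0.69 with a median of 0.07, and among the 70 that fell between -0.59 and 1.21 with a median of -0.01. It had the direction of the change and exceeded what remained net of it in 2 cases, Enpp1 (0.69 against 1.20) and the tRNA-modifying enzyme Pusl1 (-0.47 against -0.82). Net of the solvents all 101 kept their sign, with medians of 0.92 for the risen (1.04 before) and -0.98 for the fallen (-1.12 before). Of all transcript clusters 47.6% were higher and 52.4% lower. The net difference contains the difference between the mixture and K by which the 101 were chosen, so the kept signs are no further support. Since 8 arrays enter the net difference its errors are larger, and limma called 2 higher (0.00901%) and 9 lower (0.0405%). Of the 101, 1 risen (Nipal4) and 8 fallen (Ccl9, Gm3776, Wfdc17, Lgals3, Spp1, Mnda, Ifi204 and Ly6c1) were among these. Ccl9, Lgals3 and Gm3776 stayed called whichever of the 8 arrays was left out, and the count of 11 became 36 without 0.1% DMSO replicate 1 and 3 to 6 without any other array.

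**Figure D1:**
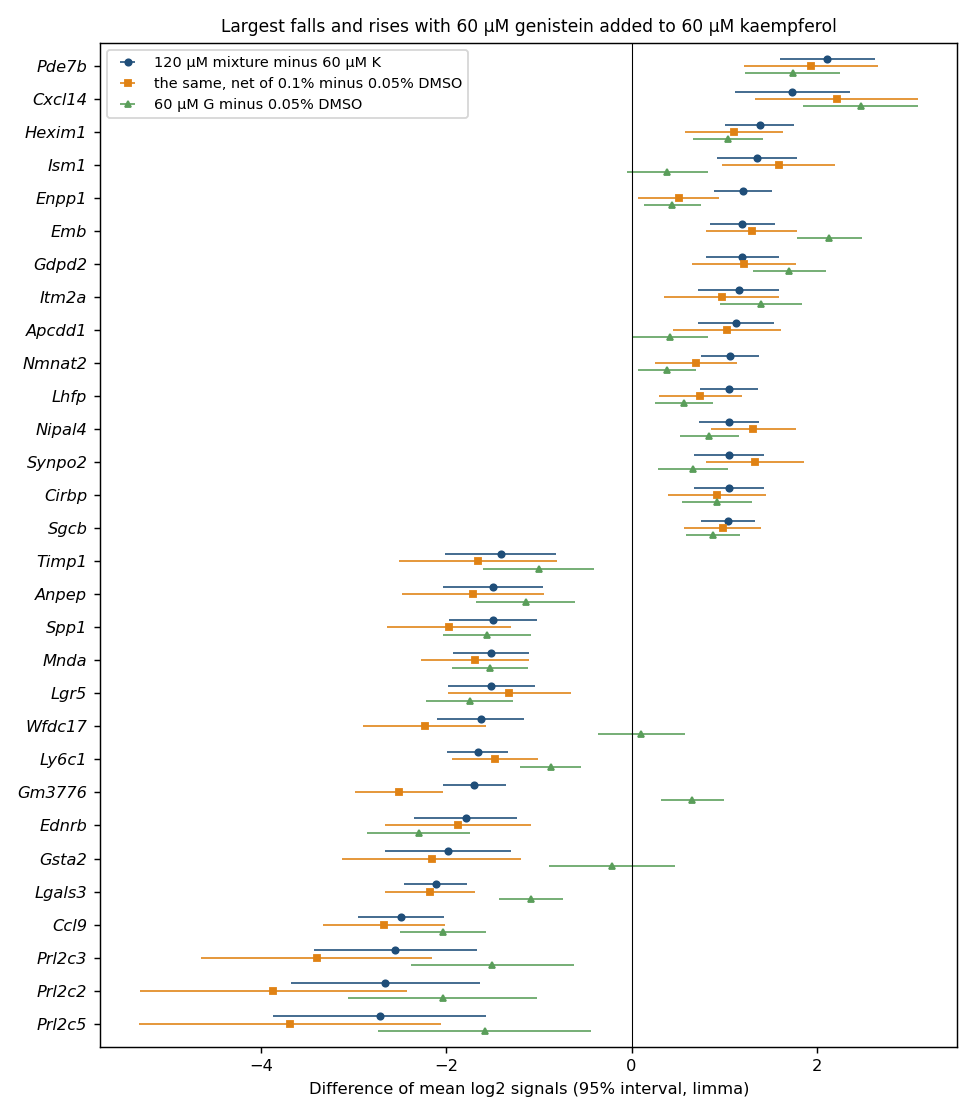
Differences of mean log2 signals with 95% intervals for the 15 largest falls and 15 largest rises past the test: the 120 µM mixture minus 60 µM K (circles), the same net of 0.1% minus 0.05% DMSO (squares) and 60 µM G minus 0.05% DMSO (triangles). Net of the solvents all 30 stay on the side of 0 they were on, while Gm3776 is higher with G alone. Wfdc17 and Gsta2 were not well above background with G alone or in 0.05% DMSO, so their triangles carry no measured response.

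Proliferins, prolactin-family hormones that growing mouse fibroblasts secrete, fell most. Prl2c5 had log2 signals of 12.31 and 12.28 with K and 9.33 and 9.82 with the mixture, a difference of -2.72 ± 0.54 (adjusted p = 0.042). Prl2c2 went from 13.52 and 13.68 to 11.07 and 10.82 (-2.66 ± 0.47, adjusted p = 0.022), and Prl2c3 from 12.98 and 13.09 to 10.63 and 10.34 (-2.55 ± 0.41, adjusted p = 0.012). These are 6.58-, 6.31- and 5.85-fold falls in which the groups are far apart. Without any 1 of the 4 arrays none of the 3 passed the test, with adjusted p up to 0.31. The DMSO controls went the other way, by 0.97, 1.21 and 0.85, so that the falls net of the solvents were larger, at -3.69, -3.87 and -3.40, without passing the test (adjusted p = 0.12, 0.077 and 0.077).

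The level that G lowered was one far above the solvent controls. Prl2c3 had a mean log2 signal of 8.78 in 0.05% DMSO, 13.03 in 60 µM K, 11.11 in 120 µM K, 10.49 in the 120 µM mixture and 7.28 in 60 µM G. The mixture thus lay between K and the controls, and 120 µM K was nearly as low as the mixture (difference -0.62, 95% interval -1.50 to 0.26, adjusted p = 0.59).

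The proliferin genes are near-identical copies whose signals the array may not separate, and they are best read as 1 family. The promoters of 2 of them, 250 bases before to 50 after the start site (RefSeq, GRCm38.p6), are shown because they share 95.3% of 301 aligned positions, and that of Ccl9 because its fall kept the call without any 1 array. Capitals mark TGANTCA with any base at N, searched on both strands. It is looser than the consensus motif of the AP-1 factors that growth signals activate. Both marked stretches read TGAATCA, and whether AP-1 factors bind there was not tested.
Prl2c3, chr13:12800030-12800329, minus strand: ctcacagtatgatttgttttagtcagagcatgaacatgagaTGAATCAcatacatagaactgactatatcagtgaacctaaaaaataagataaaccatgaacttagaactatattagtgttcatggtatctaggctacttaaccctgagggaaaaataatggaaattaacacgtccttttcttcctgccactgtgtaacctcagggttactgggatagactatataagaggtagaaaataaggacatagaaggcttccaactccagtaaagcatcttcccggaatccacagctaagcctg
Prl2c5, chr13:13182466-13182765, plus strand: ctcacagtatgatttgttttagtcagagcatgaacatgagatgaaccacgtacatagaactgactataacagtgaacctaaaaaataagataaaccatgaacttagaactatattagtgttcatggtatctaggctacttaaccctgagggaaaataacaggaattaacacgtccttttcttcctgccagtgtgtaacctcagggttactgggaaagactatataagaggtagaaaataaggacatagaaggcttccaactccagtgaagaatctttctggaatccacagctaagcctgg
Ccl9, chr11:83578587-83578886, minus strand: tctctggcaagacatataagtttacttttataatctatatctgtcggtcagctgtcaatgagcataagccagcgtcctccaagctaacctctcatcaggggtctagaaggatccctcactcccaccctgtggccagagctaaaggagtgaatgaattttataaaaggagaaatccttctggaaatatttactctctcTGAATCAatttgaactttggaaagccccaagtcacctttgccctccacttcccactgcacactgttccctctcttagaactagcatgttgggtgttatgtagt
The motif starts 209 bases before the start site in Prl2c3 and 53 bases before it in Ccl9, and these letters are not in the window of Prl2c5. It was in 2565 of all 32851 promoters (7.81%). Counted per gene, in any promoter of the gene, it was in 6 of 54 fallen (11.1%) and 0 of 26 risen genes. The antioxidant response motif TGACNNNGC, searched in the same way, was in 12.4% of all promoters. Per gene it was in 8 of the fallen (14.8%) and 3 of the risen (11.5%). A gene may have several promoters, so the shares per gene and per promoter are not on the same footing. In all, 80 of the 101 symbols had a promoter in the table.

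Ccl9, a chemokine that attracts myeloid cells, had log2 signals of 8.45 and 8.43 with K and 6.07 and 5.84 with the mixture. The mixture arrays were not well above background, that is both no higher than their negative control median, so the fall was at least 3.2-fold (limma difference -2.49 ± 0.22, adjusted p = 0.00020). It was of the same size net of the solvents (-2.67, adjusted p = 0.0038). In Lgals3, which encodes a galactoside-binding lectin of the cell surface and of damaged lysosomes, the signals were 12.67 and 12.88 with K and 10.64 and 10.69 with the mixture. This 4.33-fold fall (-2.11 ± 0.16, adjusted p = 6.7e-05) had the smallest p of the comparison and stood at -2.18 net of the solvents (adjusted p = 0.0018). Of 9 galectin genes measured, Lgals3 was the 1 that passed, and the median of the 9 was -0.07.

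Lgals3 was lower in the mixture than under any single compound. Its mean log2 signal was 14.29 in 0.05% DMSO, 13.21 in 60 µM G, 12.77 in 60 µM K and 12.04 in 120 µM K, against 10.66 in the mixture.

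Glutathione S-transferases of the alpha class, which conjugate glutathione to reactive compounds, fell in 2 of 5 measured genes. Gsta2 went from 11.07 and 11.02 to 9.05 and 9.08 (-1.98 ± 0.32, adjusted p = 0.012), and Gm3776, a gene of the same cluster, from 10.09 and 10.17 to 8.43 and 8.44 (-1.70 ± 0.16, adjusted p = 0.00022). Both stayed above the controls, since Gsta2 had a mean of 5.46 and Gm3776 of 6.53 in 0.05% DMSO. Without any 1 of the arrays Gsta2 did not pass, with adjusted p up to 0.14, while Gm3776 did. The solvent difference of Gm3776 was 0.81, opposite to its change, and net of it Gm3776 fell by 2.51 (adjusted p = 0.00050). Members of this cluster are alike in sequence, and the part of shared probes in either value was not tested.

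Genes of the Ly6 and interferon-inducible Ifi200 families fell in pairs of neighbouring copies, whose values are uncertain for the same reason. Ly6c1, a membrane-anchored surface antigen, went from 13.55 and 13.84 to 11.93 and 12.14 (-1.66 ± 0.15, adjusted p = 0.00022), and Ly6c2 from 8.24 and 8.51 to 6.99 and 7.43 (-1.17, adjusted p = 0.010). Ifi204 went from 10.08 and 10.16 to 8.79 and 8.79 (-1.33, adjusted p = 0.0022). Mnda, named Ifi211 in the RefSeq annotation, went from 11.29 and 11.26 to 9.78 and 9.75 (-1.51, adjusted p = 0.0034). Ly6c1 and Ifi204 kept the call without any 1 array. Mnda passed without K replicate 2 alone (adjusted p up to 0.066), and Ly6c2 in 1 of the 4 fits. On a list of 30 other genes of the interferon response 0 were called. With 0.455% of all transcript clusters called, this count is no result about them. At an unadjusted p under 0.05, 3 were lower (5.48% of all were) and 0 higher (4.72% of all). The list median was 0.04, and Bst2, which tethers virus particles to the cell, had a difference of -1.27 (adjusted p = 0.054).

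Further falls lay in receptors, matrix proteins and the Wnt pathway. Ednrb, a receptor of endothelins, went from 10.27 and 10.76 to 8.90 and 8.55 (-1.79), Lgr5, the R-spondin receptor that enhances Wnt signals, from 11.73 and 11.71 to 10.05 and 10.36 (-1.51), and Spp1, the secreted glycoprotein osteopontin, from 11.71 and 11.69 to 10.27 and 10.15 (-1.49). Their adjusted p were 0.0075, 0.0075 and 0.0089. Anpep, a membrane aminopeptidase (-1.49), Timp1, an inhibitor of matrix metalloproteinases (-1.41), Bcat1, the cytosolic branched-chain aminotransferase (-1.35), and Aspn, the small proteoglycan asporin (-1.11), fell as well. Wfdc17, a secreted protein, went from 6.97 and 7.37 to 5.14 and 5.94, a fall of at least 1.32-fold, since its mixture arrays were not well above background. Lef1, a transcription factor of the Wnt pathway, fell at least 1.96-fold, since its mixture arrays of 6.57 and 6.56 were not well above background. Txnip, which binds thioredoxin and limits glucose uptake, fell by 0.82 (adjusted p = 0.012), and Gsto1 by 0.94 (adjusted p = 0.014). Of the genes in this paragraph other than Wfdc17, each lost the call without at least 3 of the 4 arrays left out in turn, with adjusted p up to 0.36. The groups did not overlap in any of the 70 fallen or 31 risen transcript clusters, against 22.5% and 21.9% of all transcript clusters in each direction. These transcript clusters were called on the same arrays, so the lack of overlap is no further support for them.

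Pde7b, which degrades cAMP, rose most, from log2 signals of 8.21 and 7.91 with K to 10.22 and 10.13 with the mixture. The rise was 4.33-fold (2.11 ± 0.24, adjusted p = 0.0020), and 1.94 net of the solvents (adjusted p = 0.077). It kept the call without any 1 of the 4 arrays (adjusted p up to 0.048). A second cAMP phosphodiesterase, Pde4d, rose from 12.45 and 12.56 to 13.51 and 13.53 (1.01, adjusted p = 0.0046). Without 3 of the 4 arrays Pde4d did not pass.

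Cxcl14, a chemokine of skin, rose from 10.09 and 10.08 to 11.76 and 11.89 (1.74 ± 0.29, adjusted p = 0.014), and Hexim1 from 11.23 and 11.29 to 12.74 and 12.55 (1.38 ± 0.18, adjusted p = 0.0034). Emb, the embigin that accompanies monocarboxylate transporters to the membrane, rose from 11.20 and 11.20 to 12.50 and 12.29 (1.20 ± 0.16, adjusted p = 0.0055). Enpp1, which makes pyrophosphate from ATP outside the cell, rose from 7.96 and 7.76 to 9.12 and 9.01 (1.20 ± 0.14, adjusted p = 0.0025), but stood at 0.51 net of the solvents (adjusted p = 0.42). Cxcl14 did not pass without any 1 of the arrays, Hexim1 failed without mixture replicate 1 or K replicate 1, Emb failed without 3 of the 4 and Enpp1 without mixture replicate 1, with adjusted p up to 0.16.

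The other risen genes served varied roles. Ism1, a secreted protein, rose at least 1.12-fold and Synpo2, an actin-bundling protein, at least 1.10-fold, since their K arrays were not well above background. Apcdd1, a membrane inhibitor of Wnt signals (1.13), Nmnat2, which makes NAD (1.06), Cirbp, an RNA-binding protein induced by cold (1.05), Sgcb, a sarcoglycan (1.04), Ltbp1, which anchors latent TGF-beta in the matrix (0.94), and Etv5, a transcription factor downstream of ERK (0.88), rose with adjusted p of 0.0046 to 0.015. Sgcb passed without K replicate 2 (adjusted p up to 0.069 without another array), and the other 5 did not pass without any 1 of the 4 arrays. Ces2e, a carboxylesterase, and Tlr7, a receptor of RNA, passed the test upwards and downwards, but both of their groups were not well above background and no fold change is given. In all, 8 called transcript clusters were such in 1 of the groups and 4 in both.

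**Figure D2:**
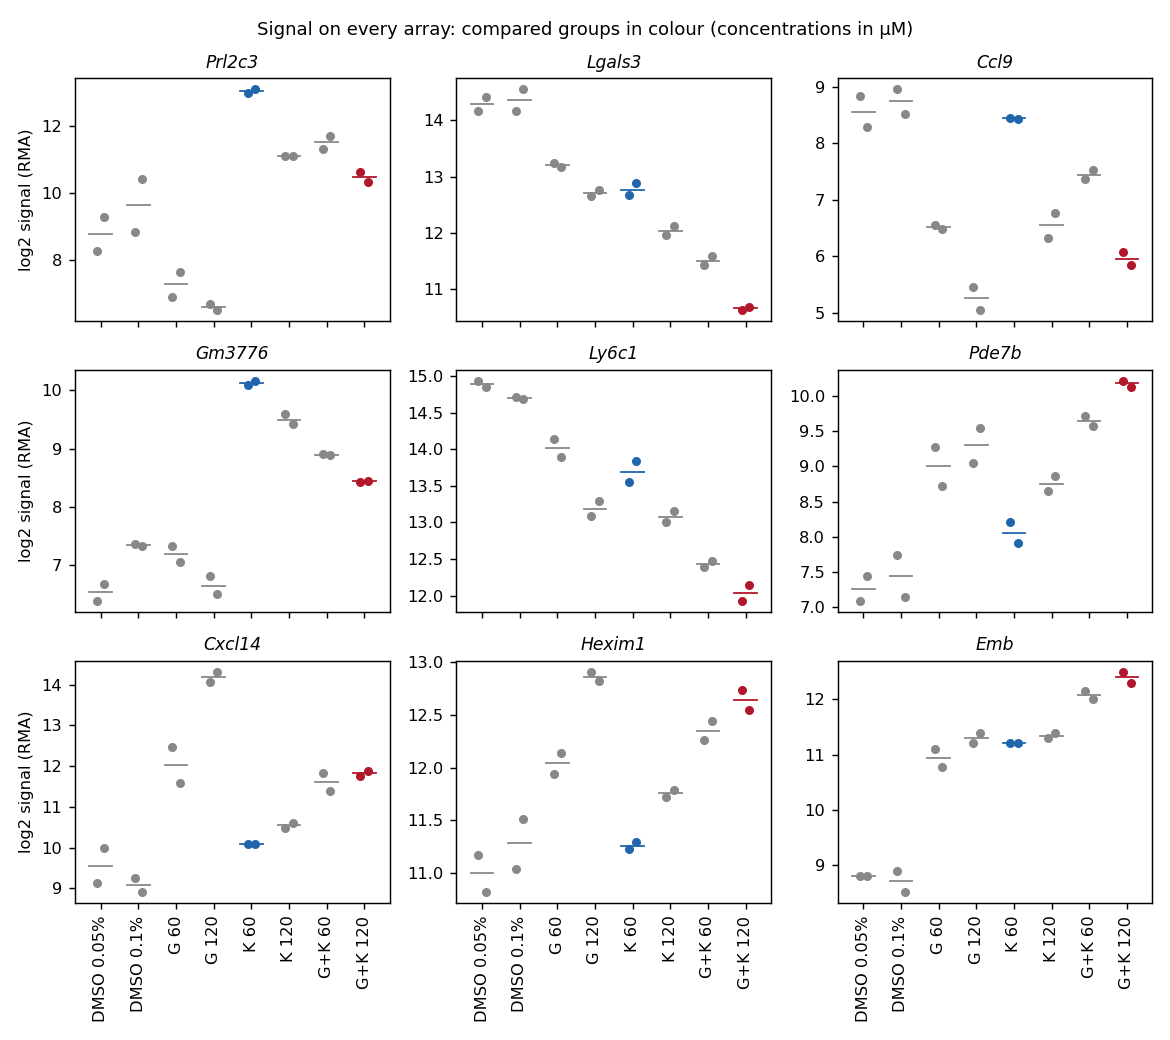
Log2 signal (y axis) of 9 genes on each of the 16 arrays (points) with the group mean (line), in the 8 groups on the x axis, with 60 µM K in blue and the 120 µM mixture in red. In every panel both red points lie on the same side of both blue points, and Prl2c3 and Gm3776 are higher in 60 µM K than in either DMSO control.

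Of 42 gene lists with 1120 genes, 13 lists had a called member, 6 genes risen and 13 fallen in all, and 29 lists had none. These 19 are 1.7% of the list genes, against 0.455% of all transcript clusters, and the lists were chosen with results of these data known. Each list is described by its counts and its median, beside a median of -0.004 over all transcript clusters. The lists of proliferins (3 of 4 fell, median -2.60) and of alpha-class glutathione S-transferases (2 of 5 fell, median -0.39) held more than 1 call in 1 direction, as did the Wnt pathway list, where 2 of 54 fell and the median was 0.01. Among 50 chemokines and cytokines, Cxcl14 rose and Ccl9 fell (median 0.00).

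Replication-dependent histone genes, which supply histones during DNA synthesis, were lower as a group without a single call. Of 65 measured, 63 were lower (50.7% of all transcript clusters were), 44 of them at an unadjusted p under 0.05, against 5.48% of all transcript clusters, and 0 higher. The groups did not overlap, with the mixture lower, in 57. The median was -0.50, and -0.49 net of the solvents. Adding K in place of G to 60 µM K, which shares the K arrays, gave a median of -0.46, with 59 lower and 35 of them at an unadjusted p under 0.05 (5.32% of all). Hist1h2bg went from 10.23 and 10.50 to 9.30 and 9.07 (-1.18, adjusted p = 0.051), and Hist1h1c from 11.32 and 11.43 to 10.67 and 10.79 (-0.64, adjusted p = 0.069). Many histone genes are near-identical, so these 65 are not independent measurements. Other genes of the cycle did not move with them: the median was 0.09 over 42 DNA replication genes and -0.09 over 40 G2/M genes, with 0 calls in either (at an unadjusted p under 0.05, 3 and 2 higher, 1 and 3 lower).

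No gene of the GAG and lysosomal lists was called. With 0.455% of all transcript clusters called, and 4.72% higher and 5.48% lower at an unadjusted p under 0.05, lists of this size would hold few calls, and the counts are no result about these genes. Of 10 enzymes whose loss causes a mucopolysaccharidosis, 0 were called and 1 was higher at an unadjusted p under 0.05, Hyal1, which cleaves hyaluronan and went from 11.66 and 11.50 to 12.19 and 12.15 (0.59 ± 0.16, adjusted p = 0.15). Of 51 GAG synthesis genes 0 were called, with 7 higher and 4 lower at an unadjusted p under 0.05 and a median of 0.05. The largest difference among them was that of Sulf1, which trims heparan sulphate (-0.81, adjusted p = 0.18). Of 36 lysosomal hydrolases 0 were called (4 higher and 1 lower unadjusted, median 0.06), among them Ppt1 at 0.78 (adjusted p = 0.14), and of 35 lysosomal membrane and V-ATPase genes 0 (3 higher and 0 lower unadjusted, median 0.12). Cholesterol synthesis genes were higher in 22 of 24 (49.3% of all transcript clusters were), with 4 higher and 1 lower at an unadjusted p under 0.05 and a median of 0.23, while their solvent median was -0.16.

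**Figure D3:**
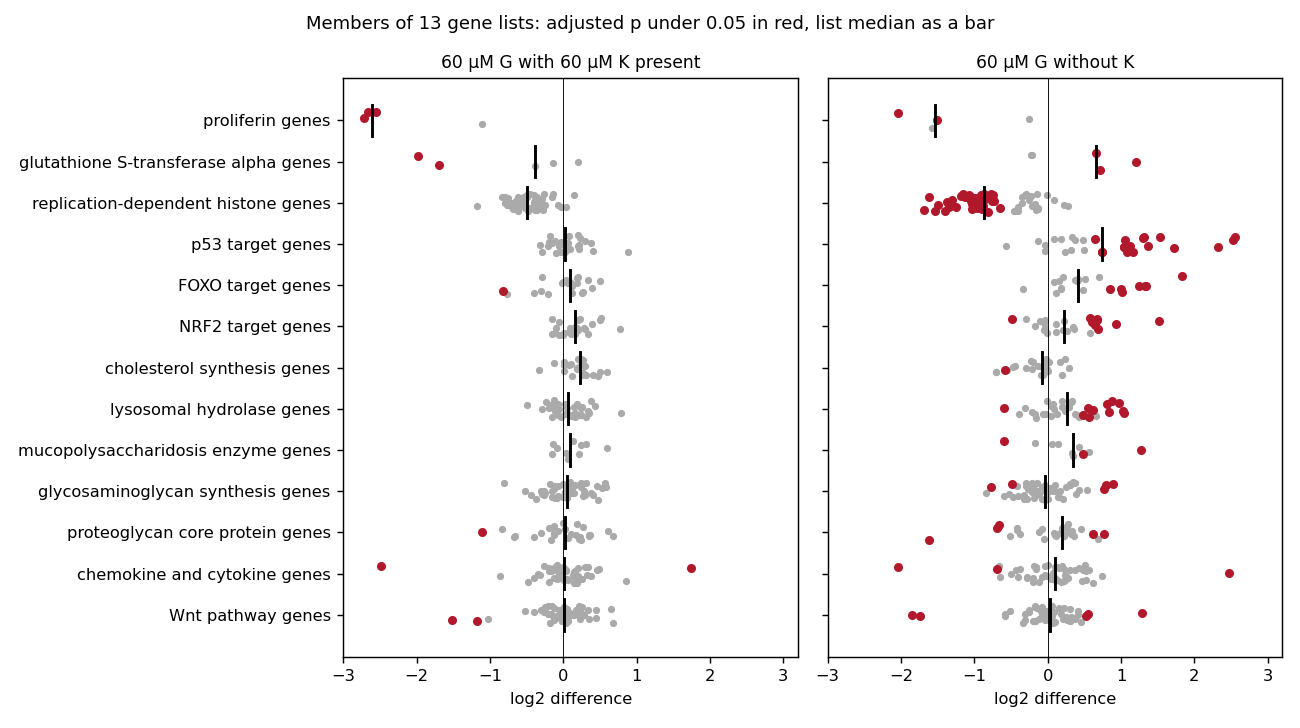
Log2 differences (x axis) of the members of 13 gene lists (y axis), one point per gene, for 60 µM G with 60 µM K present (left) and without K (right), with genes past the test in red and the list median as a bar. Proliferins lie furthest left on the left side, histone genes are left of 0 on both sides, and p53 target genes lie around 0 on the left and at a median of 0.74 on the right.

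The same 60 µM G without K, against 0.05% DMSO, raised 853 transcript clusters (3.84%) and lowered 996 (4.49%), 1849 in all (8.33%) against 101 with K present. No array is shared between these comparisons. Of the 31 clusters that rose with K present, 28 were higher with G alone (51.2% of all were) and 19 passed the test upwards (61.3% of the 31 and 2.23% of the 853). Of the 70 that fell, 63 were lower with G alone (48.8% of all were) and 50 passed downwards (71.4% of the 70 and 5.02% of the 996). Ccl9, not well above background in 60 µM G, was at least 3.54-fold lower with G alone (adjusted p = 0.00011). Lgals3 had a difference with G alone of -1.09, Cxcl14 of 2.47, Emb of 2.14 and Pde7b of 1.74, and all 5 passed there too.

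The difference between the G effects with and without K was tested for every transcript cluster. The effect was higher with K in 23 (0.104%) and lower in 61 (0.275%). Most of these had passed the test with G alone. The arrays of G alone enter the tested difference, so it favours clusters with large changes there, and the counts and medians that follow only describe them. Of the 61, 59 had risen with G alone, with a median of 1.37 against -0.01 with K. Of the 23, 22 had fallen with G alone, with a median of -1.32 against 0.11 with K. Leaving out 1 of the 8 arrays left 13 to 29 calls (13 without mixture replicate 1), and 11 were called in every one of these fits. Net of the solvents, 4 higher and 5 lower were called.

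Few of these transcript clusters were also among the 101. Anxa8, an annexin, went from 7.84 and 7.89 to 6.63 and 6.86 when G was added to K (-1.12, adjusted p = 0.011) but rose with G alone, from 6.96 and 7.20 to 8.69 and 8.87 (1.70, adjusted p = 9.7e-05). The difference of the effects was -2.82 ± 0.25 (adjusted p = 0.00023). Gm3776 fell with K present by 1.70 and rose with G alone by 0.66 (difference of the effects -2.35 ± 0.22, adjusted p = 0.00035). Ltbp1 went the other way, from 9.58 and 9.41 to 10.38 and 10.49 with K present and from 10.10 and 9.79 to 9.22 and 9.08 with G alone (1.74 ± 0.21, adjusted p = 0.0031). All 3 kept the call of the difference without any 1 of the 8 arrays.

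Other genes changed more with G alone than with K present. The dehydrogenase Dcxr rose with G alone by 2.79, from a mean of 10.28 to 13.06, and differed by 0.40 with K present (95% interval 0.10 to 0.71, adjusted p = 0.30), from a mean that was already 12.32 in K (difference of the effects -2.38 ± 0.20, adjusted p = 0.00023). Cd80, a co-stimulatory ligand of T cells (-3.04, adjusted p = 0.0014), and Ano3, a membrane protein of the anoctamin family (-2.46, adjusted p = 0.0083), differed in the same direction. Cd80 was not well above background with K or with the mixture. Slc7a1, the carrier of cationic amino acids, fell with G alone by 1.56 and stood at -0.02 with K present (1.54 ± 0.19, adjusted p = 0.0027). Eno3, the muscle enolase, fell with G alone by 2.77 and differed by -0.70 with K present, where the mixture arrays were not well above background (difference of the effects 2.08 ± 0.34, adjusted p = 0.020) and kept this call of the difference in 1 of the 8 fits with an array left out. Ano3 kept it in 6 of the 8, and Dcxr, Cd80 and Slc7a1 in all 8.

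Target genes of p53, which halts the cycle and starts apoptosis after DNA damage, held several such differences. With G alone 17 of 29 rose (3.84% of all transcript clusters did) and 0 fell, with a median of 0.74. With K present 0 were called (2 higher and 0 lower at an unadjusted p under 0.05) and the median was 0.03. Eda2r had a mean of 10.68 in 0.05% DMSO, 13.00 in G, 12.50 in K and 12.73 in the mixture, and Zmat3 of 10.69, 11.99, 12.61 and 12.32 in the same order. In Eda2r and Zmat3 the levels in K and in the mixture were therefore both above the solvent control. Why the difference was smaller with K present was not tested. The difference of the effects was called in 8 of 29 (0.275% of all were called lower), all lower with K: Eda2r, Trp53inp1, Pmaip1, Phlda3, Zmat3, Polk, Cdkn1a and Ccng1. Pmaip1, which promotes apoptosis, went from 9.80 and 9.73 to 10.69 and 10.59 when G was added to K (0.88, adjusted p = 0.12) and rose by 2.56 with G alone (difference of the effects -1.68, adjusted p = 0.034). The cycle inhibitor Cdkn1a had 16.06 and 16.24 with K and 15.94 and 16.00 with the mixture (-0.18), and rose by 1.04 with G alone (difference -1.22, adjusted p = 0.014). The call of Eda2r, a cell surface receptor, did not depend on any 1 of the 8 arrays, while each of the others was lost without most of them. FOXO target genes held 4 of 21 lower with K (Pdk4, Txnip, Klhl24 and Ccng2). Net of the solvents 1 of the 29 and 0 of the 21 were called, with medians of -0.74 and -0.47.

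**Figure D4:**
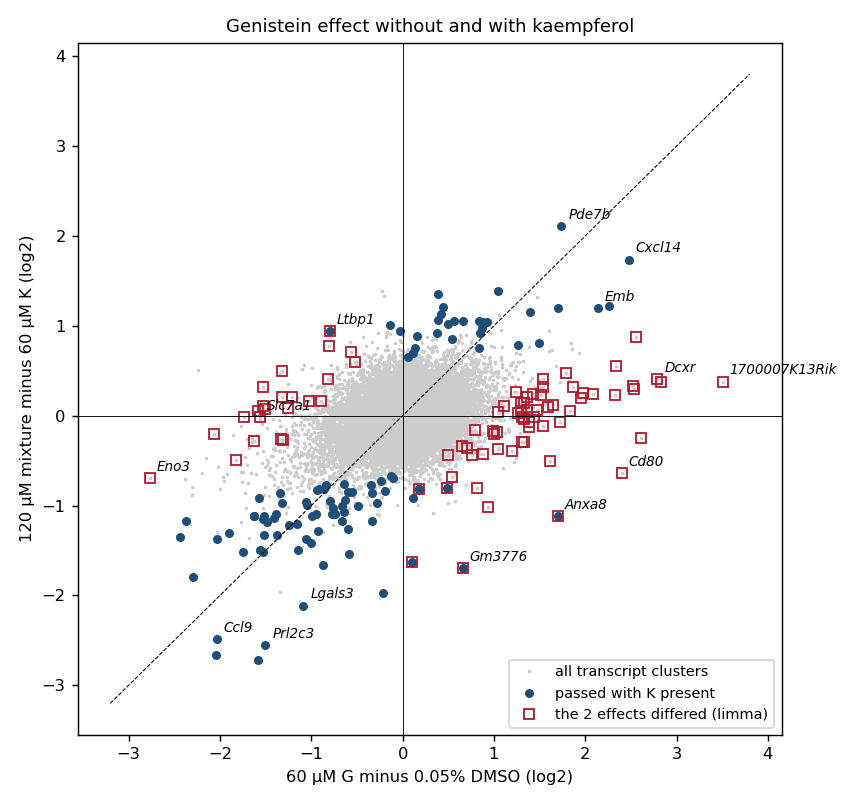
Log2 difference of every transcript cluster for 60 µM G without K (x axis) and with 60 µM K (y axis), with the 101 past the test in the presence of K (blue) and the 84 whose effects differed (red squares), and the line of equal effects dashed. Most blue points lie in the lower left and upper right corners, and most red squares lie near 0 on the y axis.

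A further 60 µM K in place of 60 µM G gives the test of G against K as the compound added to 60 µM K, at the same total of 120 µM, 1 pair in all. The solvent difference may enter here as well, since 120 µM K was a single flavonoid, and this comparison was not taken net of it. For Enpp1, which was higher with G added, the DMSO controls differed by 0.69 in the same direction. Limma called 96 transcript clusters higher with G added (0.432%) and 56 lower (0.252%). With the fit restricted to these 4 arrays it called 0 (2612 at an unadjusted p under 0.05), and leaving out 1 array left 10 (mixture replicate 2), 11 (120 µM K replicate 1), 12 (mixture replicate 1) or 135 (120 µM K replicate 2). In every one of these 4 fits 5 were called higher and 2 lower.

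Lef1 was lower with G added, with 6.57 and 6.56 in the mixture and 8.24 and 8.16 in 120 µM K (-1.64 ± 0.18, adjusted p = 0.0015), and since its mixture arrays were not well above background the difference was at least 2.71-fold. Lgals3 was lower by 1.38 (95% interval -1.72 to -1.04, adjusted p = 0.0019). Higher with G added were Enpp3, an ectonucleotide pyrophosphatase, with 12.15 and 12.45 against 10.73 and 10.81 (1.53 ± 0.17, adjusted p = 0.0015), Enpp1 (1.37 ± 0.14, adjusted p = 0.0015) and the secreted Wnt-inducible protein Wisp2, with 12.85 and 12.87 against 11.42 and 11.62 (1.34 ± 0.15, adjusted p = 0.0015). These 5 kept the call without any 1 of the 4 arrays. The actin-binding gene Tagln was higher too (1.57 ± 0.21, adjusted p = 0.0046), but not without mixture replicate 2 or 120 µM K replicate 1.

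Among the gene lists, G2/M genes were higher with added G than with added K in 40 of 40, 26 of them at an unadjusted p under 0.05 (6.13% of all transcript clusters), with a median of 0.50 and 1 called. DNA replication genes were higher in 38 of 42, 23 at an unadjusted p under 0.05 and 0 called, with a median of 0.43. ATF4 and CHOP genes, which respond to amino acid and ER stress, were lower in 25 of 26, 17 at an unadjusted p under 0.05 (5.87% of all), with a median of -0.45 and 1 called. Against 60 µM K the medians were -0.09, 0.09 and -0.14 with added G and -0.59, -0.35 and 0.28 with added K. Anxa8 (-1.21, adjusted p = 0.0090) and Gm3776 (-1.06, adjusted p = 0.0094) were lower with added G too, and Spry1, an inhibitor of receptor tyrosine kinase signals, was higher (0.97, adjusted p = 0.017).

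For some genes that moved against 60 µM K the compounds were not told apart. The difference between added G and added K was 0.59 for Lgr5 (95% interval 0.12 to 1.06, adjusted p = 0.28), -0.03 for Lmo7, a LIM domain protein (-0.32 to 0.27, adjusted p = 0.97), and 0.05 for Etv5 (-0.26 to 0.35, adjusted p = 0.93). Against 60 µM K, which both comparisons share, added G gave -2.11 and added K -0.73 for Lgals3, and 2.11 and 0.69 for Pde7b. Adding K raised 9 (0.0405%) and lowered 50 (0.225%) transcript clusters.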

How the data were processed

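RNA of murine MPS I fibroblasts was measured on Clariom S arrays, 16 in 8 groups of 2. The deposited values are log2 signals, which the authors computed by RMA (sst-rma in the column names), a method that quantile normalizes arrays. The submitters' processing notes name Affymetrix Expression Console and the Transcriptome Analysis Console. Quantile normalization removes any overall shift between arrays. Software versions were not given in the sources used here, nor was the genome build. The 22206 annotated transcript clusters were tested after 6640 control probe sets were set aside, and 22202 carry 1 symbol. Replicate arrays had a Pearson r between 0.99476 and 0.99718, and their number limits the precision.

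All arrays entered 1 fit in limma 3.58.1 (R 4.3.3), with 1 mean per group, 8 residual and 5.81 prior degrees of freedom, and Benjamini-Hochberg adjustment over all transcript clusters. Errors after ± are standard errors. Of several clusters of a symbol, that with the highest mean stands for the gene. A fold bound sets the brighter mean against, per array, the higher of the negative control median (6.47 to 6.83) and the gene's own signal. The fit was tested on 10 simulated draws, with 5.28% false calls. They used independent normal noise of the fitted spread, so their rates hold under the assumptions of the fit. Same-numbered arrays of different groups did not deviate together (median correlation 0.014 over 28 pairs), so numbers were not used as pairs.

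The members, gene lists, markers and the background rule were chosen with earlier results of these data known. Genes named are the 15 largest changes each way, up to 4 called members per list (otherwise 2), the 5 largest in the other comparisons, and control genes; Lmo7, Pde4d, Ly6c2, Ifi204, Slc7a1, Pusl1, Thy1, Runx2, Spry1 and the genes of counts were added after their values were seen. The authors' own comparison columns were not used.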

Additional observations from a re-analysis of the deposited data

Results flagged for a closer look

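The effect of 60 µM G was compared with and without 60 µM K by a test of the difference itself (limma, 22206 transcript clusters), and the counts past it and the genes chosen by the naming rule are given here. The effect was higher with K in 23 transcript clusters and lower in 61. Among the named genes, the difference of the log2 effects was -3.12 for 1700007K13Rik, -3.04 for Cd80, -2.86 for Prrg4, -2.82 for Anxa8, -2.46 for Ano3, -2.38 for Dcxr, -2.35 for Gm3776, -1.96 for Plppr3 and -1.73 for Wfdc17. Wfdc17 was not well above background in the mixture, in G or in 0.05% DMSO, and Cd80 not in the mixture, in K or in 0.05% DMSO, so the sizes of these 2 are not measured. It was -1.68 for Pmaip1, -1.22 for Cdkn1a and -1.01 for Txnip. It was 1.74 for Ltbp1, 1.81 for Hmgn5, 1.84 for Tceanc2, 1.86 for Plac9a and 2.08 for Eno3. The solvents of the mixture and of K may differ by 0.05 percentage points of DMSO, and the DMSO controls themselves differed by -1.05 for Tceanc2, -0.83 for 1700007K13Rik and 0.81 for Gm3776. The part of the solvent in these values was not tested beyond the difference net of it, in which 9 transcript clusters were called, Gm3776, Anxa8, Dcxr, Ltbp1, Eno3 and Tceanc2 among them.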

How the results depend on the processing

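The calls with G added to K (101) became 312 with transcript clusters above the negative control median alone, 302 with array weights, 287 with mean signal above the median, 384 with a trended prior, 59 with only the 4 compared arrays in the fit, 11 net of the DMSO controls and 9 to 17 without 1 array. The fold change criterion gave 1970 (1318 higher, 652 lower). Of 41 called named genes, none changed sign in any alternative, though leaving out 1 of the 4 compared arrays could not change a sign. The single solvent call was 0 with background filtering, array weights, the brighter clusters, the restricted fit, the replicate block, the trend or any array left out (1107 to 2670 at an unadjusted p under 0.05), and the criterion gave 2073. The 11 calls net of the solvents became 51, 45, 5 and 75 with background filtering, the brighter clusters, the restricted fit and the trend, 3 to 36 without 1 array, and 4487 by the criterion. The 1849 calls of G alone became 2863 with background filtering, 701 in the restricted fit, 800 to 1100 without 1 array and 4511 by the criterion. The 84 differences of the G effects became 261, 129, 247 and 307 with background filtering, array weights, the brighter clusters and the trend, 9 net of the solvents, 13 to 29 without 1 array and 4771 by the criterion. The 152 calls of added G against added K became 522, 468, 0 and 548 with background filtering, the brighter clusters, the restricted fit and the trend, 10 to 135 without 1 array and 2342 by the criterion. Fewer genes are tested with the filters and fewer samples in the restricted and left-out fits; the cause of the other changes was not tested.

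With the replicate number as a block, which is only a number here, 103 transcript clusters were called with G added to K, 11 net of the solvents, 1808 with G alone, 68 for the difference of the effects and 152 for added G against added K. Recentring, renewed quantile normalization, a robust prior and the workbook values kept the count of every comparison within 1.5 times.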

Other observations

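Circadian clock genes, which the comparison's calls did not include, held values in both directions. Of 16 measured, 7 were higher and 9 lower, with a median of -0.12, and 0 passed the test. At an unadjusted p under 0.05, 2 were higher (4.72% of all transcript clusters were) and 1 lower (5.48% of all). With 0.455% of all called, these counts are no result about clock genes. Arntl, an activator of the clock, had log2 signals of 9.22 and 9.36 with K and 9.83 and 9.90 with the mixture (0.58, adjusted p = 0.13), and its repressor Nr1d1 had 11.39 and 11.50 with K and 10.65 and 11.06 with the mixture (-0.59, adjusted p = 0.18). Net of the solvents these were 0.60 and -0.54.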
